A study of Mus musculus with 14 samples.

Results

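DNA replication genes encode the machinery that copies the genome in S phase. The set described here has 40 members, chosen as named S phase genes found in the deposited count table of 25124 genes: 6 subunits of the MCM helicase, 4 origin licensing factors, 7 factors of helicase activation and firing, 8 subunits of primase and the replicative polymerases, 7 of the sliding clamp, its loader and the single-strand binding complex, 3 of Okazaki fragment maturation and methylation maintenance, and 5 enzymes of nucleotide supply. All 40 were also among the 13434 genes tested. The libraries come from T cells of subcutaneous AE17-OVA tumours, purified by sorting; AE17-OVA is a mouse mesothelioma line that carries the model antigen ovalbumin. The question behind the study, by its title, is what blocking PD-L1 does to regulatory T cells (Tregs), a CD4 T cell type that expresses Foxp3 and dampens immune responses.

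Every group came from female C57BL/6 mice aged 8 to 12 weeks, of the genotype GATIR Foxp3Cre-rfp Gata3Cre-yfp, in which a red fluorescent protein reports Foxp3. On day 10 the mice were given anti-PD-L1 (clone MIH5), which binds a ligand of the inhibitory receptor PD-1, or an isotype antibody (clone 2A3), 200 µg in 300 µl into the peritoneal cavity. Cells were taken on day 13 and sorted by CD4, CD25, PD-1 and the red reporter. PD-1+ Tregs had 3 anti-PD-L1 and 2 isotype libraries, PD-1- Tregs 2 and 2, and other CD4 T cells 3 and 2. Smart-seq2, a method that copies whole transcripts of few cells, gave the libraries, without molecular identifiers. The sources used here do not give the cells, animals or pools behind each library, so p-values measure the spread between libraries.

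Before S phase, the origin recognition complex, Cdc6 and Cdt1 load the MCM hexamer onto DNA as an inactive ring. Cdc7 kinase, Mcm10, Cdc45 and the GINS complex then turn it into the active helicase, polymerase alpha with primase starts each strand, and polymerases delta and epsilon extend it on the clamp PCNA. Many of these genes are transcribed together by E2F factors as T cells divide after antigen contact, and resting T cells hold little of their RNA.

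Promoters are shown for 4 members, all with an E2F-type motif as defined next. Pola1 and Pole2 passed the threshold in a comparison. Rfc3, like Rfc5, Rrm1 and Tk1, separated PD-1+ Tregs from both other populations. Mcm6 is the MCM subunit with the highest CPM. Fen1, Mcm10, Tyms, Rrm1, Rfc5 and Tk1, also named below, hold no such motif. Capitals mark letters of the E2F-type motifs TTTCCCGC, TTTGGCGC, TTTCGCGC or TTTGCCGC on either strand, in the window from 250 bases before to 50 bases after the start in the RefSeq table (GRCm38.p6). Overlapping matches are merged into 1 run of capitals.
Pola1, chrX:93632106-93632405, minus strand: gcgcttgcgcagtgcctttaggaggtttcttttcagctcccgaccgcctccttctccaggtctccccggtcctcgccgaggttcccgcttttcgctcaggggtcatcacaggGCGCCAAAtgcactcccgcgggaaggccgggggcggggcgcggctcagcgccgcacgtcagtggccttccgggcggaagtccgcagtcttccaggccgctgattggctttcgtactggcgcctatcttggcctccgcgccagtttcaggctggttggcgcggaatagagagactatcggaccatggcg
Pole2, chr12:69228141-69228440, minus strand: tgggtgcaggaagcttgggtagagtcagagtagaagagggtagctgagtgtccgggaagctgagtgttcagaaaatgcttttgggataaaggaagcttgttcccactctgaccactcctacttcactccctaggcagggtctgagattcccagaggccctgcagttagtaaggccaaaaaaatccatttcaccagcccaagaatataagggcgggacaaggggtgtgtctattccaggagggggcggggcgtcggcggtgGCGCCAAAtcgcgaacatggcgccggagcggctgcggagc
Mcm6, chr1:128359656-128359955, minus strand: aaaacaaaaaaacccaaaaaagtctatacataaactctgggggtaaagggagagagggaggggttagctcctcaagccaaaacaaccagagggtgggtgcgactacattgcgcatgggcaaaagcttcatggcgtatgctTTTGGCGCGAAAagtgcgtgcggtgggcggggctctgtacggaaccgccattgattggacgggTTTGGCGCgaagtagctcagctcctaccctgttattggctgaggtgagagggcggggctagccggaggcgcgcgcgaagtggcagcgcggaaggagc
Rfc3, chr5:151651159-151651458, minus strand: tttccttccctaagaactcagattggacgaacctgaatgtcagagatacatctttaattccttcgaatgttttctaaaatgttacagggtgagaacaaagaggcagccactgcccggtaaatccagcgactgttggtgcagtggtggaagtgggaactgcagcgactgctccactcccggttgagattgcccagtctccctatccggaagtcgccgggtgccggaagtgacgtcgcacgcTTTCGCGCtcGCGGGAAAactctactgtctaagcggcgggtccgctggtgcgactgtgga

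The table held a promoter for 33 of the 40 members; Mcm4, Gins1, Gins2, Gins4, Prim2, Pole and Rfc2 had none. An E2F-type motif was found in 14 of the 33 (42.4%), against 2.61% of the 27025 genes with a promoter in the table and 4.61% of the 10549 tested genes among them. A gene with several windows was counted if any of them held the motif. The 14 were Mcm3, Mcm5, Mcm6, Mcm7, Orc1, Cdc6, Cdt1, Gins3, Pola1, Pold1, Pole2, Rfc3, Lig1 and Uhrf1. The general promoter letters CCAAT stood in 20 of the 33 (60.6%), against 41.1% of all genes in the table and 42.6% of the tested ones. The letters TTTGAA, part of a cell cycle element of mitotic genes, stood in 6 (18.2%), against 20.2% and 14.7%. With the start used for the window counted as 0, the match begins at -138 in Pola1, 11 in Pole2, -110, -106 and -47 in Mcm6, and -10 and 1 in Rfc3. For Pola1 and Pole2 that start lies inside the gene limits given below, not at their outer end. The Pola1 match therefore falls within those limits, although before the start used. A match is a description of these letters and not evidence of binding.

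Total counts per library lay between 10638848 and 15030804, so depth differed little, but the number of genes with at least 1 count ran from 8027 to 14535. It was 9662 to 11312 in PD-1+ Tregs, 8027 to 8801 in PD-1- Tregs and 12119 to 14535 in CD4 T cells. Of the treated libraries 3, replicate 3 of PD-1+ Tregs, replicate 2 of PD-1- Tregs and replicate 3 of CD4 T cells, held 285, 249.5 and 208 CPM of the Y-linked genes Ddx3y, Eif2s3y, Kdm5d and Uty, although the labels give female mice, so the calls below are also given without these 3 libraries. CPM are counts per 1e+06, on library sizes scaled by the trimmed mean of M values. T cell markers were present in every library, and Treg markers summed to 1732 to 3048 CPM in PD-1+ Tregs, 2066 to 3292 in PD-1- Tregs and 397 to 1373 in CD4 T cells. Foxp3 alone did not separate PD-1+ Tregs (15.9 to 156 CPM) from CD4 T cells (16.3 to 55.0 CPM), and was at 114 to 198 CPM in PD-1- Tregs. Pdcd1, which encodes PD-1, separated PD-1+ Tregs (85.6 to 246 CPM) from PD-1- Tregs (21.7 to 46.5 CPM). It did not separate PD-1+ Tregs from CD4 T cells (45.4 to 275 CPM). All 10 macrophage and monocyte markers were detected in every PD-1+ Treg library (2945 to 5135 CPM) and every CD4 library (1670.1 to 4669 CPM), and 6 of 10 in each PD-1- Treg library (273 to 742 CPM). Of the 10 mesothelial tumour and stroma markers, Msln, Krt8, Krt18 and Krt19 were at 0 in all PD-1+ Tregs and Msln, Wt1, Krt8 and Krt19 in all PD-1- Tregs, while the summed list reached 218 to 1059 and 260.1 to 1425 CPM. In CD4 T cells none of the 10 was at 0 in all libraries, and 6 to 10 were detected per library. Their sum there was 161 to 661 CPM under anti-PD-L1 and 901 to 1239 CPM under isotype. The part of such cells in the results below was not tested.

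Detection came first, because it limits every comparison with PD-1- Tregs. PD-1+ Tregs held at least 1 count of 39, 39 and 38 genes under anti-PD-L1, against 39 and 39 under isotype. PD-1- Tregs held 31 and 29 under anti-PD-L1, against 31 and 33 under isotype. CD4 T cells held all 40 in each of their 5 libraries. The populations did not overlap in this count, and the treatments differed by at most 4 genes within a population. The same order held for all 13434 genes tested, of which 70.3% to 81.8% had a count in PD-1+ Tregs, 58.3% to 64.1% in PD-1- Tregs and 87.0% to 97.8% in CD4 T cells. Of the member values, 3.00% were 0 counts for PD-1+ Tregs and 22.5% for PD-1- Tregs, and none of 200 was for CD4 T cells, against 23.1%, 38.2% and 6.00% of the values of all genes tested.

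**Figure D1:**
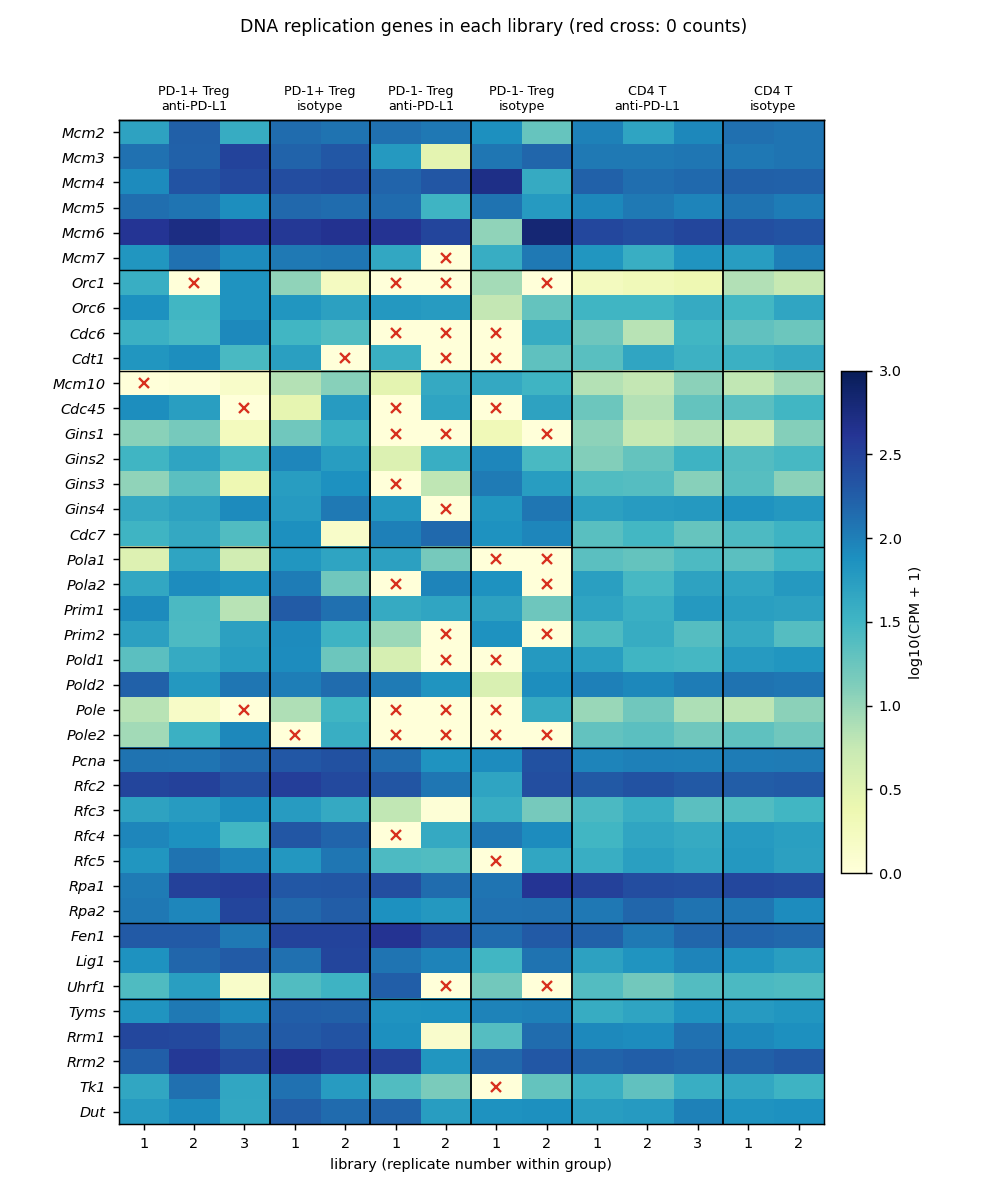
Level of each of the 40 replication genes (rows, grouped by role) in each of the 14 libraries (columns), as log10(CPM + 1), with a red cross at 0 counts. The crosses gather in the 4 PD-1- Treg libraries, and CD4 T cells have none.

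Zeros in PD-1- Tregs fell on the members that were low in CD4 T cells. Of the 18 members with a CD4 mean of at least 50 CPM, 2.78% of the PD-1- values were 0, while of the 22 members below it 38.6% were, against 4.58% and 53.4% for all genes tested at those levels. A count of 0 allows a level of up to 0.198 to 0.292 CPM (3 counts per library, counting error only). Such a 0 shows that no read of the gene was counted from that library, not that the sorted cells lacked it. Pole2 had 0 counts in all 4 PD-1- libraries, Orc1, Cdc6, Gins1 and Pole had counts in 1 of them, and Pola1 in 2. The 21 members detected in all 14 libraries included 5 of the 6 MCM subunits, Pcna, Rfc2, Rfc3, Rpa1, Rpa2, Fen1, Lig1, Tyms, Rrm1, Rrm2 and Dut.

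Per length, on the authors' RPKM scale, the same few genes led in each population. Mean RPKM in PD-1+ Tregs was highest for Rfc2 (161 ± 28.7), Rrm2 (125 ± 46.9), Mcm6 (124 ± 18.3) and Pcna (108 ± 37.3; SD, n = 5). In PD-1- Tregs it was highest for Mcm6 (101 ± 75.7), Fen1 (98.5 ± 58.7), Pcna (88.2 ± 47.1) and Rfc2 (88.1 ± 51.2; n = 4). In CD4 T cells Rfc2 led (115 ± 7.98), before Rpa1 (78.2 ± 10.2), Mcm6 (75.7 ± 8.96) and Rrm2 (70.2 ± 5.96; n = 5). Most neighbours in these orders lay within each other's SD. The lead of Rfc2 exceeded the SD of both genes for CD4 T cells, but for PD-1+ Tregs was within the SD of Rrm2. Across libraries of a population the median coefficient of variation of a member's CPM was 49.7% for PD-1+ Tregs, 79.3% for the 39 members that PD-1- Tregs held and 22.7% for CD4 T cells, against 75.8%, 105.8% and 33.7% over all genes tested.

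The summed level of the 40 genes was highest in PD-1+ Tregs. It was 3406, 4454 and 4056 CPM in anti-PD-L1 PD-1+ Tregs, against 5055 and 4889 CPM in isotype PD-1+ Tregs. In PD-1- Tregs it was 3494 and 2207 CPM under anti-PD-L1, against 2489 and 3653 CPM under isotype. CD4 T cells stood at 2755, 2606 and 2868 CPM under anti-PD-L1, against 2945 and 2921 CPM under isotype. Every PD-1+ library was above every CD4 library, and the PD-1- libraries overlapped both. The mean was 1.55-fold that of CD4 T cells (4372 ± 666 against 2819 ± 139.8 CPM, SD, n = 5 each), and 1.48-fold that of PD-1- Tregs (2961 ± 720.1 CPM, n = 4). In bulk RNA, fewer cells in S phase and less of this RNA per cell cannot be told apart.

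**Figure D2:**
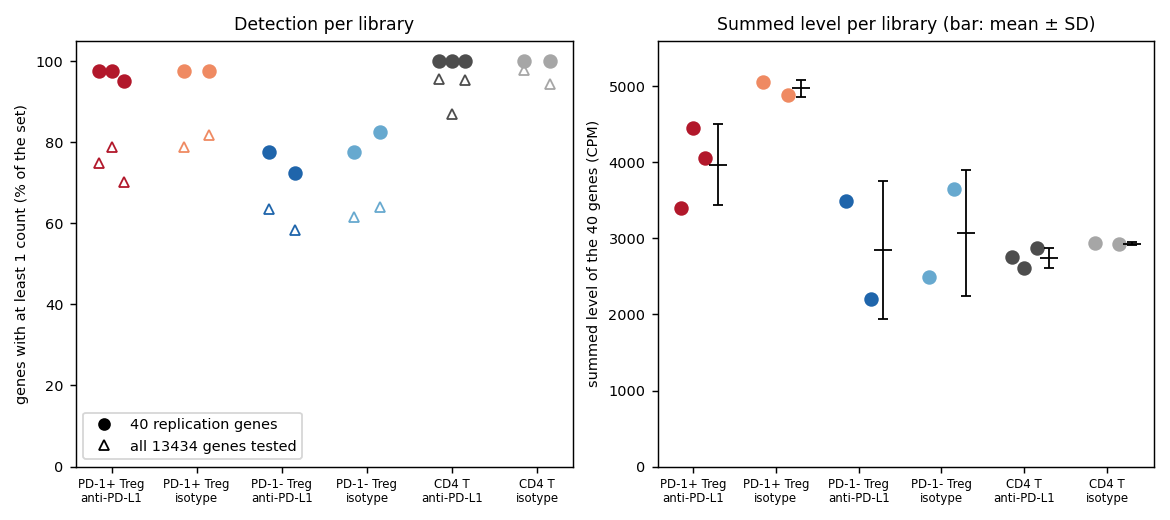
Left, the percentage of the 40 replication genes (filled circles) and of all 13434 genes tested (open triangles) with at least 1 count, per library. Right, the summed CPM of the 40 genes per library with the group mean ± SD; PD-1+ Tregs lie between 3406 and 5055 CPM, all above CD4 T cells.

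PD-1+ Tregs were first set against CD4 T cells, the population with the fewest zeros. Replication genes leaned towards PD-1+ Tregs: 36 of the 40 had a positive log2 change and 4 a negative one (Mcm10, Pold1, Pole and Rpa1), with a median of 0.63, while the median over all genes tested was -0.23. On the authors' RPKM fewer members were positive, 28 on log2(RPKM + 0.1), while the median over all genes was also lower, at -0.60. None of the 40 passed an adjusted p of 0.05 in the edgeR quasi-likelihood test, where 0.35% of all genes did (47 of 13434). At an unadjusted p under 0.05 there were 5, near the 12.4% of all genes, and DESeq2 called 2, Lig1 and Tyms, both upward, where it called 5.52% of all genes. In 8 members every PD-1+ library was above every CD4 library, Mcm3, Mcm6, Pcna, Rfc2, Rfc3, Rfc5, Rrm1 and Tk1, which is 20% of the set where the share over all genes was 1.71%. In 0 members was every PD-1+ library lower, where the share over all genes was 4.72%. Without the 3 libraries with Y-linked counts, 14 of the 40 were higher without overlap, against 3.62% of all genes.

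Nucleotide supply had the highest median among the role groups for PD-1+ Tregs against CD4 T cells. Its 5 genes were all positive, with a median log2 change of 1.12, and their summed level was 622, 962 and 589 CPM in anti-PD-L1 PD-1+ Tregs, 1124 and 928 CPM in isotype PD-1+ Tregs, and 375 to 488 CPM in CD4 T cells. Rrm1, the large subunit of ribonucleotide reductase, stood at 279, 267, 154, 189 and 217 CPM in PD-1+ Tregs, against 83.9, 79.0, 126, 84.5 and 74.6 CPM in CD4 T cells. The populations did not overlap, and the log2 change was 1.31 ± 0.85 (SE, edgeR adjusted p = 0.662). Rrm2, the small subunit, whose level follows S phase, had 172, 374, 264, 455 and 343 CPM in PD-1+ Tregs, against 161, 174, 161, 168 and 196 CPM in CD4 T cells. A single PD-1+ library lay inside the CD4 range, and the log2 change was 0.92 ± 0.37 (edgeR adjusted p = 0.349). Tyms, which makes thymidylate, had the smallest adjusted p of the set here, with 121 ± 49.2 CPM in PD-1+ Tregs and 55.4 ± 12.7 CPM in CD4 T cells (log2 change 1.12 ± 0.32, edgeR adjusted p = 0.236). Its values over the other settings ran from 4.13e-05 with DESeq2 to 0.751, and a pseudogene of it, Tyms-ps, is also in the table.

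Among the MCM genes all 6 were positive, with a median log2 change of 0.55. Mcm6 had 419, 527 and 429.6 CPM in anti-PD-L1 and 378 and 436 CPM in isotype PD-1+ Tregs, against 279.7, 247, 283, 235 and 215 CPM in CD4 T cells. No PD-1+ library reached down to the CD4 range, and the change was 0.81 ± 0.66 (edgeR adjusted p = 0.816). All 4 licensing genes were positive as well, with a median of 0.88. Orc1, the large subunit of the origin recognition complex, had the most positive log2 change of the comparison (2.54 ± 1.86, edgeR adjusted p = 0.755). It was at 37.2, 0 and 69.3 CPM in anti-PD-L1 and 9.76 and 0.710 CPM in isotype PD-1+ Tregs, against 0.725, 1.00, 1.28, 6.36 and 4.49 CPM in CD4 T cells, so that 3 PD-1+ libraries were above and 2 below the CD4 range. Cdc6 had 40.4 ± 24.8 CPM in PD-1+ Tregs and 17.5 ± 8.88 CPM in CD4 T cells. Orc6 had 73.2, 30.3 and 69.4 CPM in anti-PD-L1 and 66.3 and 50.9 CPM in isotype PD-1+ Tregs, against 30.9, 31.1, 40.2, 29.8 and 45.9 CPM in CD4 T cells, with 1 treated library among the CD4 values.

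Clamp genes followed the same lean, with 6 of 7 positive and a median log2 change of 0.73. Pcna, the sliding clamp, had 121, 121, 143, 198 and 226 CPM in PD-1+ Tregs, against 89.8, 98.5, 96.4, 104 and 106 CPM in CD4 T cells (log2 change 0.73 ± 0.31, edgeR adjusted p = 0.374). Rfc3, a small subunit of the clamp loader, had 48.3, 57.6, 76.8, 56.5 and 41.3 CPM in PD-1+ Tregs, against 26.6, 36.2, 21.2, 23.9 and 29.9 CPM in CD4 T cells. Both sets of libraries stood apart. Rpa1, the large subunit of the single-strand binding complex, was the exception, with 106, 313, 332, 202 and 205 CPM in PD-1+ Tregs and 315, 246, 234, 276 and 262 CPM in CD4 T cells, and no separation (-0.24 ± 0.37). Lig1, the ligase that seals Okazaki fragments, had 70.2, 152, 185, 131 and 294 CPM in PD-1+ Tregs, against 49.2, 67.8, 91.0, 68.1 and 54.2 CPM in CD4 T cells (log2 change 1.38 ± 0.44, edgeR adjusted p = 0.294). Its lowest PD-1+ library lay within the CD4 range.

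**Figure D3:**
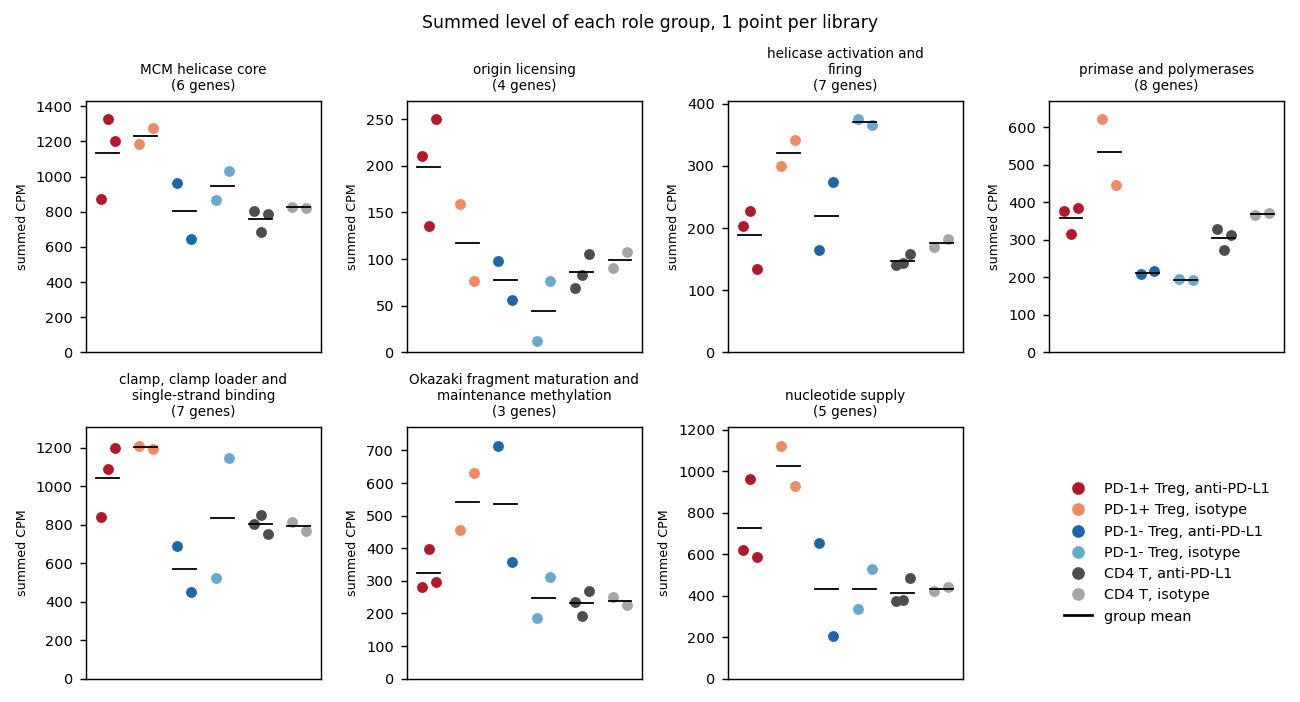
Summed CPM of each role group, 1 point per library and a line at each group mean. Primase and polymerase genes lie between 194 and 218 CPM in all 4 PD-1- Treg libraries, below all others. Nucleotide supply genes lie between 589 and 1124 CPM in PD-1+ Tregs, overlapping PD-1- Tregs (207 to 656 CPM).

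Other genes of the pathway gave few calls in this comparison. Of 39 further replication genes 28 were positive and 11 negative, with 0 past the threshold and a median log2 change of 0.32. All 14 mitosis genes were positive (median 1.24) with 0 past it. Of 17 regulators of G1 and S phase 11 were positive, and 1 rose in edgeR, Cdk6, a kinase of early G1, with 662, 419, 797, 535 and 439.6 CPM in PD-1+ Tregs and 119.7 to 277 CPM in CD4 T cells (log2 change 1.66 ± 0.26, adjusted p = 0.0174).

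PD-1+ Tregs were then compared with PD-1- Tregs, where 4.28% of all genes passed the edgeR threshold (575, 511 of them up). Of the 40 members 2 passed, both upward, Pole2 and Pola1, which is 5% of the set; 36 were positive and 4 negative (Cdc7, Fen1, Mcm10 and Mcm4), with a median log2 change of 0.93 beside 0.42 over all genes. Every PD-1+ library was above every PD-1- library in 4 members, Rfc3, Rfc5, Rrm1 and Tk1 (10% of the set, 3.24% of all genes), and below in 0 (0.782% of all genes). Without the libraries with Y-linked counts 6 of the 40 were above, against 6.80% of all genes. In the same libraries PD-1- Tregs had fewer genes detected and lower macrophage markers, as given above, and their part in these differences was not tested.

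Pole2, the second subunit of polymerase epsilon, had 7.81, 34.4 and 86.2 CPM in anti-PD-L1 PD-1+ Tregs and 0 and 36.8 CPM in isotype PD-1+ Tregs, against 0 counts in all 4 PD-1- Treg libraries. It rose in PD-1+ Tregs by at least 129-fold against a floor of 3 counts per library, a bound for counting error only (edgeR adjusted p = 0.0337). CD4 T cells held 19.0, 21.0, 15.3, 19.7 and 15.1 CPM, so that Pole2 fell in PD-1- Tregs against them by at least 70.3-fold (edgeR adjusted p = 0.0426), without overlap. Both calls were lost without the 3 libraries with Y-linked counts (adjusted p = 0.142 and 0.154). Leaving out 1 library at a time, the call against PD-1+ Tregs was kept in 3 of 14 fits, without isotype replicate 1 or anti-PD-L1 replicates 1 or 3 of PD-1+ Tregs, and lost in the others. The call against CD4 T cells was kept in 4, without either isotype library or without anti-PD-L1 replicates 1 or 3 of PD-1+ Tregs.

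Pola1, the catalytic subunit of polymerase alpha, is the other call and rests on zeros in 1 arm. It had 2.40, 47.2 and 3.51 CPM in anti-PD-L1 and 65.2 and 47.2 CPM in isotype PD-1+ Tregs, against 51.2 and 14.2 CPM in anti-PD-L1 and 0 counts in both isotype PD-1- Tregs. The populations overlap, and the ratio of mean levels was 2.02 (33.1 ± 28.5 against 16.4 ± 24.2 CPM). The comparison averages the log2 means of the treatments, so the isotype arm at 0 sets its size, and only the call is given (edgeR adjusted p = 0.0477; 0.106 without the libraries with Y-linked counts). It was kept in 2 of the 14 fits that left out 1 library, without anti-PD-L1 replicate 1 or 3 of PD-1+ Tregs. DESeq2 gave Pola1 no adjusted p in any comparison.

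Members of neighbouring roles gave values of the same kind without a call. Gins1, a GINS subunit, had 10.8, 14.0, 0.779, 15.2 and 34.7 CPM in PD-1+ Tregs, against 1.02 CPM in a single isotype library and 0 counts in the other 3 PD-1- Treg libraries (edgeR adjusted p = 0.0523). All PD-1+ libraries but 1 were above every PD-1- value. Cdc6 had 24.5 to 84.3 CPM in PD-1+ Tregs, against 38.3 CPM in 1 isotype library and 0 counts in the other 3 (edgeR adjusted p = 0.079). Tk1, thymidine kinase, had 44.6, 130.4, 44.5, 126 and 57.5 CPM in PD-1+ Tregs, against 24.3, 13.2, 0 and 18.2 CPM in PD-1- Tregs (edgeR adjusted p = 0.212), and the populations did not overlap. Rfc3 had 5.03, 0.0841, 37.8 and 13.9 CPM in PD-1- Tregs, all below the lowest PD-1+ library at 41.3 CPM (edgeR adjusted p = 0.137).

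Summed over the 8 primase and polymerase genes, PD-1+ Tregs held 376, 315 and 385 CPM under anti-PD-L1, against 621 and 445 CPM under isotype. PD-1- Tregs held 208 and 218 CPM under anti-PD-L1, against 194 and 194 CPM under isotype, and CD4 T cells held 272 to 371 CPM. The 4 PD-1- libraries were below every other library, although no single gene of the 8 was. Pold2, an accessory subunit of polymerase delta and the highest of these genes, had 62.6 to 163 CPM in PD-1+ Tregs, against 106 and 66.9 CPM in anti-PD-L1 and 2.70 and 78.1 CPM in isotype PD-1- Tregs, and 85.8 to 122 CPM in CD4 T cells.

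Mcm10 and Cdc7 ran the other way. Mcm10, which helps activate the loaded helicase, had 0, 0.0784 and 0.390 CPM in anti-PD-L1 and 6.11 and 11.1 CPM in isotype PD-1+ Tregs. PD-1- Tregs had 1.92 and 40.7 CPM of it under anti-PD-L1, against 42.6 and 31.8 CPM under isotype, and CD4 T cells had 4.93 to 10.4 CPM. For PD-1+ against PD-1- Tregs the log2 change was -4.57 ± 1.44 (edgeR adjusted p = 0.0911, and 1.29e-05 with DESeq2). Cdc7, the kinase that fires loaded origins, had 32.1, 41.9, 24.3, 74.6 and 0.395 CPM in PD-1+ Tregs, some of them inside the range of the other populations. It had 99.5 and 145 CPM in anti-PD-L1 and 70.3 and 87.8 CPM in isotype PD-1- Tregs, against 17.9 to 33.0 CPM in CD4 T cells, and these sets stood apart (log2 change 1.92 ± 0.95, edgeR adjusted p = 0.204).

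Fen1, the nuclease that trims Okazaki fragments, and Uhrf1, which guides maintenance methylation, were not lower on average in PD-1- Tregs. Fen1 had 111 to 303 CPM in PD-1+ Tregs, against 421, 264, 140.2 and 190.1 CPM in PD-1- Tregs and 111 to 163 CPM in CD4 T cells. Uhrf1 had 0.390 to 53.7 CPM in PD-1+ Tregs, against 175 and 0 CPM in anti-PD-L1 and 15.0 and 0 CPM in isotype PD-1- Tregs. The mean of Uhrf1 in PD-1- Tregs, 47.5 ± 85.2 CPM, is set by 1 library.

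Of the further pathway genes, 4 of 39 replication genes, 1 of 17 regulators and 3 of 14 mitosis genes rose in PD-1+ against PD-1- Tregs by edgeR, and 1 regulator fell. The replication genes were Asf1b, a histone chaperone (log2 change 1.46 ± 0.31, adjusted p = 0.0206), Chaf1a, the large subunit of chromatin assembly factor 1 (adjusted p = 0.0143), Nasp, another histone chaperone (adjusted p = 0.0426), and Atad5, which unloads the clamp (adjusted p = 0.0111). Chaf1a and Atad5 had 0 counts in all 4 PD-1- libraries, Nasp in both treated ones, while Asf1b was at 229 to 403 CPM in PD-1+ Tregs and 39.96 to 175 CPM in PD-1- Tregs. The regulator that rose was Cdkn1a, the cell cycle inhibitor p21 (1.45 ± 0.26, adjusted p = 0.0101), and Ccnd2, cyclin D2, fell by 0.64 ± 0.15 on the log2 scale (adjusted p = 0.0394). The mitosis genes were Birc5 (1.18 ± 0.30, adjusted p = 0.0451), Bub1 (adjusted p = 0.0234) and Kif11 (adjusted p = 0.0457), with arms at 0 among the PD-1- libraries for the last pair.

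PD-1- Tregs against CD4 T cells had 3.6% of all genes past the edgeR threshold (484, of them 447 down), and 1 of the 40 members, Pole2, fell. Members were positive in 13 and negative in 27, with a median log2 change of -0.32, while the median over all genes was -0.94. Cdc7 and Tyms were higher without overlap (5% of the set, 1.01% of all genes), and Gins1 and Pole2 lower (5%, 13% of all genes). Pola1 was not past the threshold (edgeR adjusted p = 0.0596). Among the further genes, Samhd1, which degrades nucleotides outside S phase, rose (0.56 ± 0.13, adjusted p = 0.0326), Cdk6 rose (1.26 ± 0.27, adjusted p = 0.026), and Chaf1a and Atad5 fell (adjusted p = 0.0191 and 0.0177).

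Treatment was compared within each population, beginning with PD-1+ Tregs. None of the 40 members passed the edgeR threshold, which 0.0149% of all genes did (2 of 13434); 5 members had an unadjusted p under 0.05, as did 8.06% of all genes, and DESeq2 called 1, Mcm10, downward, and 4.6% of all genes. Log2 changes were negative for 27 members and positive for 13, with a median of -0.32 beside 0 over all genes. The summed level was 0.799-fold that of isotype (3972 ± 529 against 4972 ± 118 CPM), with every treated library lower. In 13 members all 3 treated libraries were below both isotype libraries (32.5% of the set, 11.5% of all genes), and in 0 all were above (7.69% of all genes). The 13 were Mcm5, Mcm10, Gins1, Gins2, Gins3, Pola1, Prim1, Pole, Pcna, Rfc4, Fen1, Tyms and Dut; Pola1 separates only in the second decimal of its CPM. Without the treated library with Y-linked counts 16 of the 40 were lower and 2 of the 40 higher, against 16.6% and 14.8% of all genes.

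Scaling by total counts moves all genes in this comparison by -0.14 on the log2 scale, and the ratio of summed levels was then 0.727, and 0.705 on RPKM, so the direction did not turn. Genes detected also moved with treatment, at 10298, 10884 and 9662 in treated libraries, against 10893 and 11312 in isotype libraries. So did the share of counts taken by Actb, at 6.47%, 5.88% and 7.27% against 4.26% and 3.60%, and the summed B cell markers, at 82.2, 22.9 and 38.4 CPM (4, 2 and 2 of 5 detected, Ms4a1 at 0 in all treated libraries) against 189 and 364 CPM (5 of 5). Summed Treg markers were higher, at 2580 to 3048 CPM in treated against 1732 to 2372 CPM in isotype libraries. The part of these shifts in the lower replication levels was not tested.

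**Figure D4:**
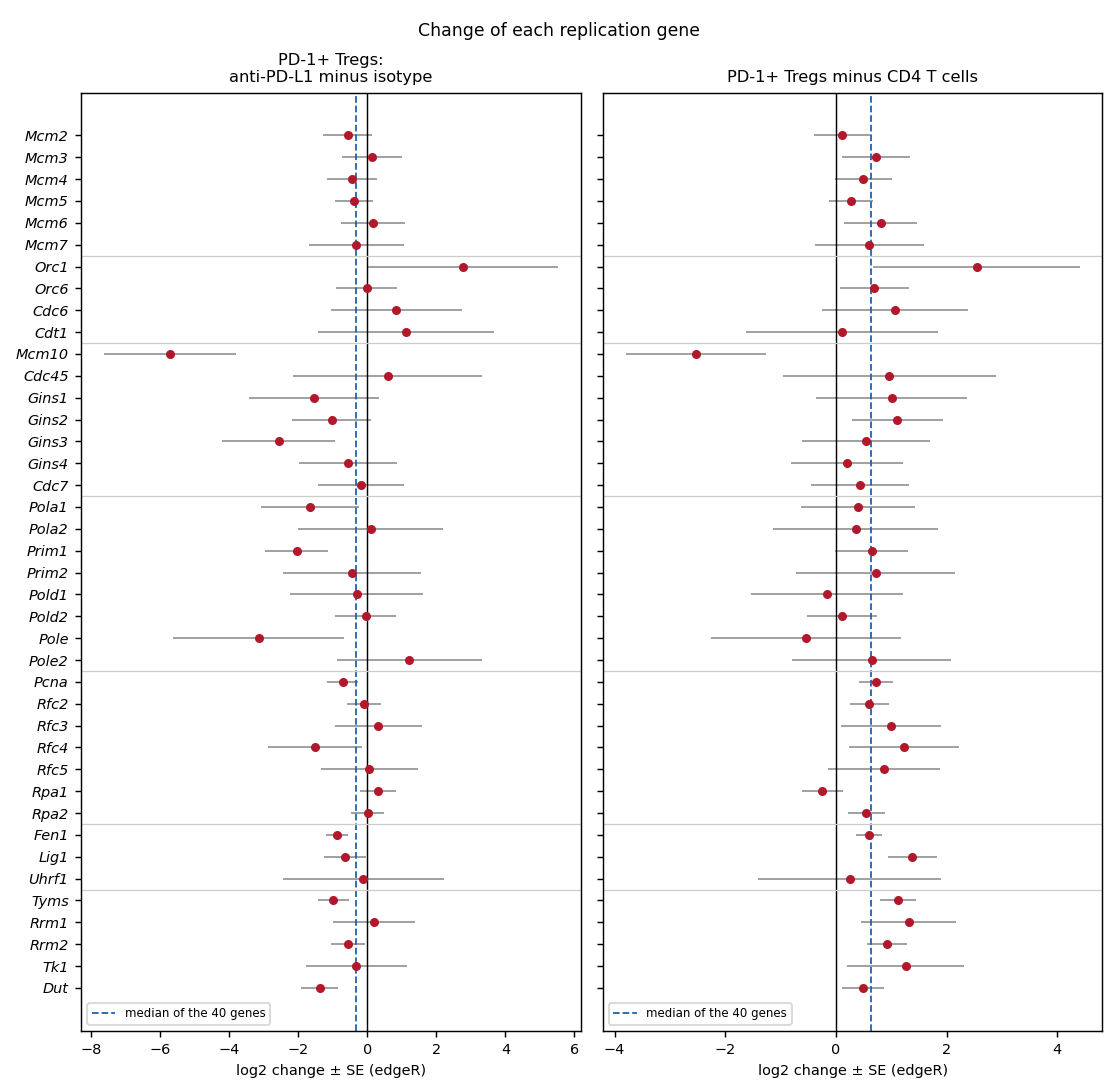
Log2 change ± SE of each of the 40 genes in PD-1+ Tregs, anti-PD-L1 minus isotype (left), and in PD-1+ Tregs minus CD4 T cells (right), by role, with the median of the set as a dashed line at -0.32 and 0.63. None of the changes drawn passed the edgeR threshold.

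Helicase activation genes had the most negative median among the role groups in PD-1+ Tregs (-1.04, with 6 of 7 negative). Their summed level was 204, 228 and 134 CPM under anti-PD-L1, against 300.3 and 341 CPM under isotype, without overlap. Mcm10 led, at 0, 0.0784 and 0.390 CPM against 6.11 and 11.1 CPM, a log2 change of -5.72 ± 1.91 (edgeR adjusted p = 0.595, with a range of 0.000888 to 1 over the alternatives). The first of these isotype values is 72 counts, and the authors' RPKM for it (0.148) is 0.0984 of what the same gene's other libraries imply. Gins3 had 9.95, 20.9 and 1.27 CPM under anti-PD-L1, against 54.9 and 72.9 CPM under isotype, and Gins2 had 30.7, 47.0 and 26.8 CPM against 88.6 and 54.9 CPM. Gins4, the highest of the group over all libraries, overlapped, at 42.4, 49.1 and 80.6 CPM against 59.0 and 111 CPM.

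Nucleotide enzymes were lower in part. Tyms had 67.7, 109 and 84.3 CPM in anti-PD-L1 PD-1+ Tregs, against 175 and 170.4 CPM in isotype PD-1+ Tregs, a log2 change of -0.99 ± 0.44 (edgeR adjusted p = 0.607) with the same sign in all 24 alternatives. Dut, which keeps uracil out of DNA, had 58.7, 82.3 and 42.9 CPM against 179 and 141 CPM. Rrm2 overlapped, with 172, 374 and 264 CPM against 455 and 343 CPM (-0.56 ± 0.51), and Rrm1 was at 279, 267 and 154 CPM against 189 and 217 CPM.

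Of the polymerase genes 6 of 8 were negative in PD-1+ Tregs. Prim1, the catalytic subunit of primase, had 81.5, 26.4 and 5.65 CPM under anti-PD-L1, against 184 and 130.3 CPM under isotype. Pole, the catalytic subunit of polymerase epsilon, had 5.75, 0.470 and 0 CPM against 6.54 and 30.6 CPM (-3.16 ± 2.48, edgeR adjusted p = 0.916), and Pole2 had 7.81, 34.4 and 86.2 CPM against 0 and 36.8 CPM (1.22 ± 2.10). Licensing genes had the highest median (0.98, 3 of 4 positive); Orc1 was at 37.2, 0 and 69.3 CPM against 9.76 and 0.710 CPM (2.76 ± 2.77) and Cdc6 at 34.8, 28.0 and 84.3 CPM against 30.3 and 24.5 CPM. Among MCM genes Mcm6 was at 419, 527 and 429.6 CPM against 378 and 436 CPM (0.17 ± 0.92), and 4 of 6 were negative. Rpa1 was at 106, 313 and 332 CPM against 202 and 205 CPM, on both sides of isotype.

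In PD-1- Tregs 2.66% of all genes passed the edgeR threshold (358), and 1 of the 40 members, Pola1, rose. It had 51.2 and 14.2 CPM under anti-PD-L1, against 0 counts in both isotype libraries, at least 119-fold (edgeR adjusted p = 0.0393, and 0.0328 without the treated library with Y-linked counts and the others like it). Pola1 was detected in all PD-1+ and CD4 libraries, and isotype PD-1- Tregs were the only group without it. The call was kept in 5 of the 14 fits that left out 1 library, those without a treated Treg library. It was lost without any CD4 library and without any isotype Treg library, and with only the 4 libraries compared it was 0.705.

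Other members with an arm at 0 went the opposite way and were not past the threshold. Cdc6 had 0 counts in both anti-PD-L1 PD-1- libraries, against 0 and 38.3 CPM under isotype (edgeR adjusted p = 0.0993), Orc1 0 counts against 7.54 and 0 CPM (0.240), and Pole 0 counts against 0 and 39.7 CPM (0.177). In each, an isotype library was also at 0. Over the set 17 log2 changes were positive and 22 negative, with a median of -0.26, or -0.44 with arms at 0 taken at their bound, beside 0 over all genes. The summed levels overlapped, and their ratio of 0.928 turned to 1.01 with total counts and 1.02 on RPKM. Members higher without overlap were Mcm2, Orc6, Cdc7, Pola1 and Fen1 (12.5% of the set, 12.5% of all genes), and lower ones Mcm3, Gins3, Gins4, Rfc3, Rfc4, Rpa2 and Tyms (17.5%, 14% of all genes), both near the share of all genes. Without the libraries with Y-linked counts 12 of the 40 were higher and 9 of the 40 lower, against 28.7% and 22.6% of all genes.

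Replicates in PD-1- Tregs differed widely for single members. Mcm6 was at 429 and 290.2 CPM under anti-PD-L1, against 9.96 and 653 CPM under isotype, and Rrm1 at 75.2 and 0.337 CPM against 22.8 and 135 CPM. Rrm2 was at 327 and 66.0 CPM against 149 and 201 CPM. In each of these 3 the treated values lay within or across the isotype range. Actb took 3.16% and 2.74% of counts under anti-PD-L1, against 6.53% and 8.71% under isotype, and the part of this in the members' values was not tested. Among further genes Bub1, a mitotic checkpoint kinase, fell to 0 counts in both treated libraries, against 58.4 and 52.0 CPM (adjusted p = 0.0112), and Cdkn1b, the inhibitor p27, fell by 1.80 ± 0.43 on the log2 scale (adjusted p = 0.0473).

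CD4 T cells had 0 members past the edgeR threshold for treatment, against 0.00744% of all genes (1 of 13434), 0 members under an unadjusted p of 0.05 (1.15% of all genes), and 0 by DESeq2 (0.402%). Log2 changes were negative for 30 members and positive for 10, with a median of -0.15 beside -0.013 over all genes. Scaling by total counts moves all genes in this comparison by -0.084 on the log2 scale. The summed level was 0.935-fold that of isotype (2743 ± 131 against 2933 ± 16.9 CPM), every treated library being lower. Members lower without overlap were Mcm2, Orc1, Cdc45, Gins4, Pold1, Pold2, Pcna, Rfc4 and Uhrf1 (22.5%, 15.5% of all genes), and Mcm6 and Rfc2 were higher (5%, 12.5% of all genes). Without the treated library with Y-linked counts 16 of the 40 were lower and 3 of the 40 higher, against 22.9% and 17.5% of all genes. Orc1 had the most negative change, at 0.725, 1.00 and 1.28 CPM under anti-PD-L1, against 6.36 and 4.49 CPM under isotype (-2.43 ± 2.47). Cdc45 was at 16.1, 6.01 and 18.4 CPM against 20.8 and 29.9 CPM (-0.91), and Rpa2 at 114, 151 and 121 CPM against 115 and 79.6 CPM (0.40), which overlap. Pole was at 8.83, 15.2 and 6.68 CPM against 5.34 and 10.6 CPM (0.36), and Pcna at 89.8, 98.5 and 96.4 CPM against 104 and 106 CPM. B cell markers were lower with treatment here too (45.0 to 83.0 against 174 to 200.1 CPM, 4 or 5 of 5 detected in each library). So were mesothelial tumour and stroma markers (161 to 661 against 901 to 1239 CPM). Treg markers (979 to 1373 against 397 to 453 CPM) and T cell markers (5156 to 5737 against 4950 to 5030 CPM) were higher without overlap. Macrophage and monocyte markers overlapped (1670.1 to 4669 against 2656 to 3202 CPM). The part of these markers in the members' values was not tested.

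**Figure D5:**
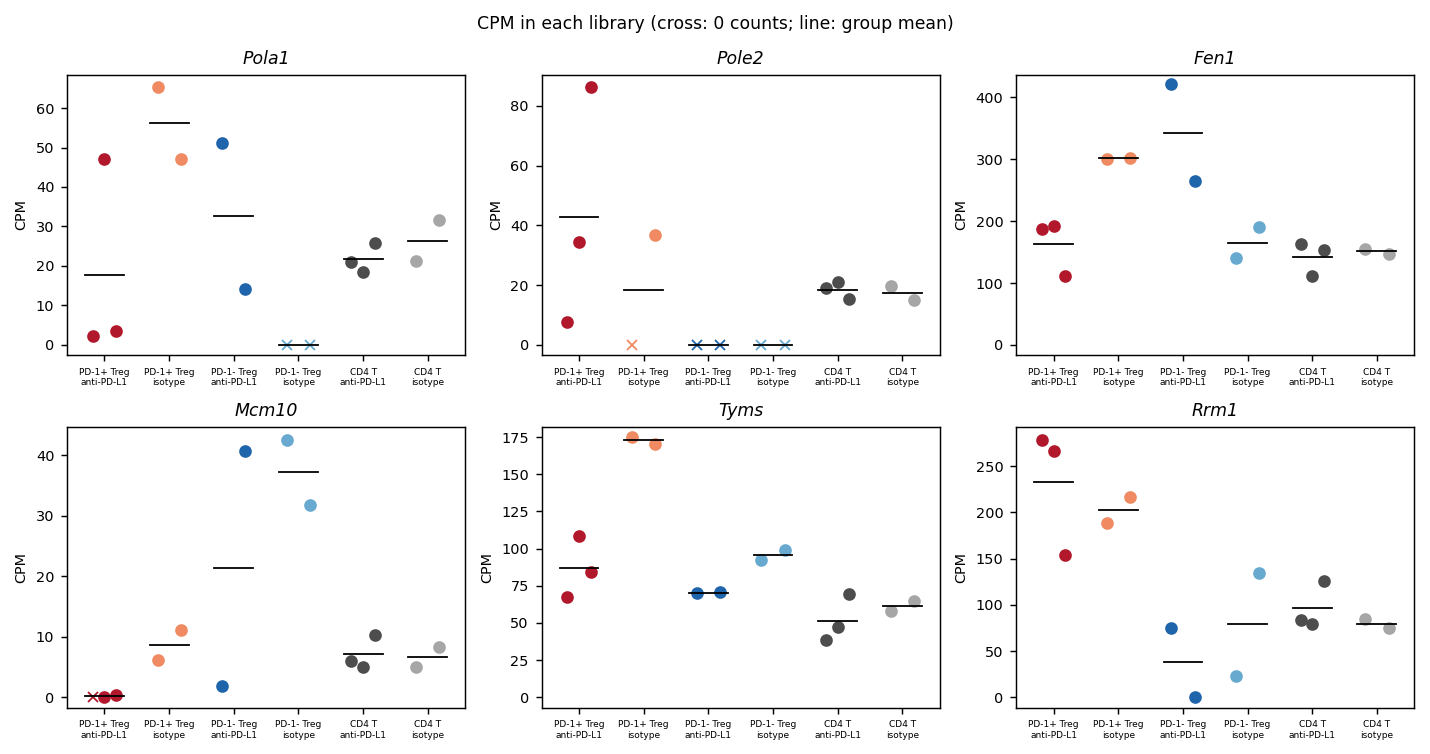
CPM of Pola1, Pole2, Fen1, Mcm10, Tyms and Rrm1 in each library, with crosses at 0 counts and a line at the group mean. Fen1 is lower in all 3 anti-PD-L1 PD-1+ libraries (111 to 192 CPM against 299.8 and 303 CPM) and higher in both anti-PD-L1 PD-1- libraries (264 and 421 CPM against 140.2 and 190.1 CPM).

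Whether treatment changed a member differently in the populations was tested as an interaction. Between PD-1+ and PD-1- Tregs, 1 of the 40 passed, Pola1 (edgeR adjusted p = 0.04999), where 1.46% of all genes did (196). It was lower in PD-1+ Tregs under anti-PD-L1 (2.40, 47.2 and 3.51 against 65.2 and 47.2 CPM) and higher in PD-1- Tregs (51.2 and 14.2 CPM against 0 counts), and the adjusted p was 0.0493 without the libraries with Y-linked counts. The call was kept in 3 of the 14 fits that left out 1 library, those without anti-PD-L1 replicate 1 or 2 of PD-1- Tregs or replicate 2 of PD-1+ Tregs.

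Fen1, detected in every library, had changes of opposite sign in the Treg types. It had 187, 192 and 111 CPM in anti-PD-L1 PD-1+ Tregs, against 299.8 and 303 CPM under isotype (log2 change -0.88 ± 0.32, edgeR adjusted p = 0.595). In PD-1- Tregs it had 421 and 264 CPM under anti-PD-L1, against 140.2 and 190.1 CPM under isotype (1.05 ± 0.36, adjusted p = 0.142). In CD4 T cells it had 163, 111 and 154 CPM under anti-PD-L1, against 156 and 147 CPM under isotype, which overlap. The difference of the changes in the Treg types was -1.94 ± 0.48, with an edgeR adjusted p of 0.0774, not past the threshold. Its sign was the same in all 24 alternatives, and it passed in 3 of them, DESeq2 (0.000849), the fit without the libraries with Y-linked counts, and the fit without anti-PD-L1 replicate 2 of PD-1- Tregs. Fen1 overlaps Tmem258 on the opposite strand by 130 exonic bases, and the sources used here do not say whether counting used strand.

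Between PD-1+ Tregs and CD4 T cells 0 members passed the interaction test, as did 0% of all genes in edgeR, with 1 member and 3.5% of all genes under an unadjusted p of 0.05; DESeq2 called 0 members and 2.04% of all genes. Between PD-1- Tregs and CD4 T cells 0 members passed in edgeR, where 0.975% of all genes did (131), with 4 members and 14.3% of all genes under an unadjusted p of 0.05. DESeq2 called 3 members (Orc6 upward, Cdc6 and Pole downward) and 13.4% of all genes.

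Positions are those of the RefSeq table of GRCm38.p6, the build that the submitters' processing notes name as mm10. Pola1 (NCBI gene 18968) lies on chromosome X, 93304766 to 93632387, and Pole2 (18974) on chromosome 12, 69201773 to 69228205, both on the minus strand. Fen1 (14156) lies on chromosome 19, 10199132 to 10204393, Mcm10 (70024) on chromosome 2, 4990724 to 5012791, and Tyms (22171) on chromosome 5, 30038546 to 30073645. Exons of 10 members overlap those of another counted gene, Mcm7, Orc6, Cdc45, Gins2, Rfc2, Rfc4, Rfc5, Fen1, Lig1 and Tk1. Their values are uncertain where reads of both genes could be counted together.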

How the data were processed

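For 25124 genes in 14 libraries, 1 deposited table gives the authors' raw read counts and another the authors' RPKM (reads scaled for transcript length and depth), per the file headers. Tools named in the submitters' processing notes, without their roles, are HOMER 3.12, SAMtools, DESeq2 and HISAT2 2.0.4, and the build is mm10; the sources used here do not give the annotation or counting settings. The deposited counts entered edgeR 4.0.16 unchanged, under R 4.3.3 (filterByExpr with a minimum count of 10, TMM scaling, robust quasi-likelihood F-test, 1 fit of 6 group means over 14 libraries). Benjamini-Hochberg adjustment ran over 13434 genes within each comparison, with a threshold of 0.05. Comparisons of populations average the log2 means of both treatments with equal weight. The common biological coefficient of variation was 1.22. Levels are CPM without a prior count, mean ± SD. SEs were taken as the absolute log2 change divided by the root of the F statistic. Where an arm had 0 counts, a fold is a bound against 3 counts per library. Intervals and floors cover counting error only.

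The members, lists and rules were chosen with earlier results of these data known. Values in every library were given for members past the threshold, the highest member of each role, and the 2 most positive and 2 most negative per comparison with at least 5 CPM in the higher arm; a few others that separated without overlap were named after their values were seen. Alternatives were DESeq2 1.42.0 (p-values floored at 1e-10), RLE scaling, no filter, only the libraries compared, limma-voom with quality weights (limma 3.58.1), limma on log2(RPKM + 0.1) and log2(RPKM + 1), replicate blocks, single libraries left out, and the 3 libraries with Y-linked counts left out. Detection used at least 1 count, with 5 and 10 as alternatives. Of 518 RPKM values of the members with counts, 1 (Mcm10) differed more than 2-fold from the level implied by its CPM. The fits were also run on data simulated with changes in well-counted genes of treated PD-1+ Tregs only. That does not cover calls that rest on arms at 0 counts. Promoter letters are from a RefSeq table of GRCm38.p6, searched with Python 3.11.15.

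Replicates of a group differed by 25.1 to 418 times counting noise (chi-square per degree of freedom), so none was a repeat deposit. All columns of both tables were matched to a library by name.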

Additional observations from a re-analysis of the deposited data

Results flagged for a closer look

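The change of Pola1 with treatment differed between the Treg types in a test of the difference itself (edgeR interaction, adjusted p = 0.04999). It was lower in 3 of 3 anti-PD-L1 PD-1+ libraries than in either isotype library, 1 of them only in the second decimal, and higher in 2 of 2 anti-PD-L1 PD-1- libraries, and rests on 0 counts in both isotype PD-1- libraries. The range over the alternatives was 0.0191 to 0.403.

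Y-linked counts, which were not among the measurements compared, appeared in 3 libraries of the main fit. Ddx3y, Eif2s3y, Kdm5d and Uty summed to 285 CPM in anti-PD-L1 PD-1+ Tregs replicate 3, 249.5 CPM in anti-PD-L1 PD-1- Tregs replicate 2, and 208 CPM in anti-PD-L1 CD4 T cells replicate 3, all with the number 03 in the brackets of their titles. In the other 11 libraries the sum was at most 0.0849 CPM. The labels give female mice for all groups.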

How the results depend on the processing

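The sums of the 40 genes kept their direction under every alternative in 4 of 6 comparisons. The treatment ratio in PD-1- Tregs (0.928) was 1.01 with total counts, 1.02 on RPKM, 1.14 without the libraries with Y-linked counts, and 0.719 to 1.15 with 1 library left out. The ratio of PD-1- Tregs to CD4 T cells (1.05) was 0.993 on RPKM and 0.968 to 1.14 with 1 library left out.

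Counts of members past the threshold moved with the tool, as did those over all genes. Over all genes, only the libraries compared gave 0 for treatment in PD-1- Tregs and 33 for PD-1+ against PD-1- Tregs. Against CD4 T cells that setting gave 152 for PD-1+ and 1466 for PD-1- Tregs. Limma-voom gave 0, 1, 763 and 18 of all genes in the same order. In that order log2(RPKM + 0.1) gave 546, 744, 319 and 1771 of all genes, log2(RPKM + 1) 510, 513, 193 and 968, and no filter 394, 590, 71 and 486. Some fits that left libraries out had only 1 library in a group. Counts of members and of all genes both moved in such fits and are not set out here. For treatment in PD-1+ Tregs (0 members) DESeq2 gave 1. For treatment in PD-1- Tregs (1) DESeq2 gave 7, only the libraries compared and limma-voom gave 0, and log2(RPKM + 1) gave 2. For PD-1+ against PD-1- Tregs (2) DESeq2 gave 8, no filter 1, only the libraries compared 0, limma-voom 0 and log2(RPKM + 0.1) 4. For PD-1+ Tregs against CD4 T cells (0) DESeq2 gave 2, only the libraries compared 2 and limma-voom 7. For PD-1- Tregs against CD4 T cells (1) DESeq2 gave 6, only the libraries compared 3, limma-voom 0 and both RPKM settings 2. For the interaction of the Treg types (1) DESeq2 gave 7, while no filter, only the libraries compared, limma-voom and both RPKM settings gave 0. Over all genes no filter gave 183 there, log2(RPKM + 0.1) 184 and log2(RPKM + 1) 93. For PD-1- Tregs against CD4 T cells in treatment change (0) DESeq2 gave 3, the fit without those libraries 2, and single libraries left out 0 to 5. The cause was not tested.

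With a replicate block, by either number in the titles, 0 members passed in any comparison, and 575 genes for PD-1+ against PD-1- Tregs became 173 and 241. The highest correlation of same-numbered libraries was 0.074 and no pair was over 0.1. Correlations between such variable libraries cannot exclude pairs, and the libraries with Y-linked counts share a number in the brackets of their titles. The numbers were left out of the main fit, and whether they mark shared animals or pools was not tested. Over all genes DESeq2 gave 618, 2755 and 54 for treatment in PD-1+ Tregs, PD-1- Tregs and CD4 T cells, where edgeR gave 2, 358 and 1. It gave 2963 for PD-1+ against PD-1- Tregs, 741 and 3134 for PD-1+ and PD-1- Tregs against CD4 T cells, and 2166 and 1804 for the treatment change in PD-1- Tregs set against PD-1+ Tregs and CD4 T cells, where edgeR gave 575, 47, 484, 196 and 131. For PD-1+ Tregs against CD4 T cells limma-voom gave 763. DESeq2 gave Pola1 no adjusted p in any comparison, so it is in none of the DESeq2 counts. Of 619 values for single genes under the alternatives, 510 kept their side of the threshold. Of the rest, 84 lost a call, 18 gained one, 7 moved and 0 reversed. These values cover 26 pairs of gene and comparison, most of them not past the threshold in the main fit. The 510 are therefore no measure of how firm the calls are. All 84 losses fell on the Pola1 and Pole2 calls, each lost in more alternatives than it was kept in. Of the values in PD-1- Tregs of members with a CD4 mean under 50 CPM, 38.6% are 0, which limits their comparisons.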

Other observations

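Genes that act beside the 40 were also compared by treatment. In PD-1- Tregs under anti-PD-L1 the further replication genes were positive in 14 and negative in 23 of 39, and the regulators of G1 and S phase positive in 11 and negative in 6 of 17, with medians of -0.84 and 0.55 on the log2 scale. In PD-1+ Tregs the same lists were positive in 10 and 7, negative in 29 and 10, with medians of -0.46 and -0.28. The 14 mitosis genes were positive in 4 and negative in 10 in PD-1+ Tregs under anti-PD-L1 (median -0.12), and positive in 7 and negative in 7 in both PD-1- Tregs (0.08) and CD4 T cells (0.02). These counts are descriptions with no test of the lists.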
